A study of Mus musculus with 4 samples.

Results

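The laminin chain genes described here are Lama1, Lama2, Lama3, Lama4, Lama5, Lamb1, Lamb2, Lamb3 and Lamc1. They were taken by symbol from the feature tables of 4 single-cell libraries of whole embryonic mouse noses, and are 9 of the 32285 features measured. All 9 were detected in all 4 libraries, and each is given below across marker-gated epithelial, vascular, glial, mesenchymal and skeletal cells and between control and mutant libraries.

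A laminin is a secreted trimer of 1 alpha, 1 beta and 1 gamma chain, coiled together in the endoplasmic reticulum. Laminins polymerise on the cell surface and, with nidogens, collagen IV and heparan sulfate proteoglycans, build the basement membrane, the thin sheet under epithelia and around vessels, nerves, muscle and fat. The alpha chain carries the globular domains that bind integrins, dystroglycan and other receptors, so the alpha chain a cell makes largely sets what its neighbours can hold on to. In the nose, basement membranes underlie the respiratory and olfactory epithelia and the skin, sheathe the olfactory nerve bundles with their glia, and surround the vessels.

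The noses came from mouse embryos at embryonic day 14.5 and formed 2 control and 2 mutant libraries. The sample labels call the controls WT of strain C57Bl/6J, whereas the series design describes yap flox/flox;taz flox/flox animals without a Cre, and which of these is right is not settled by the sources. The mutants carried Tg(Sox10-cre)1Wdr with Yapflox and Tazflox on C57Bl/6J, given in the series design as Sox10cre;yap flox/WT;taz flox/flox, so that 1 Yap allele was left wild type. Sox10 is expressed in the neural crest, which forms the glia of the nose and, as background, much of the facial mesenchyme, the meninges of the forebrain and mural cells of vessels there, and the Cre is expressed under this driver only. The extraction protocol names 2 noses of each genotype for the 2 libraries of each, but does not state which nose went into which library, so p-values measure the spread between these libraries, which may be technical in part.

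After cells below 500 genes or above 10% mitochondrial UMIs were dropped, there remained 4075 and 2474 cells in controls 1 and 2 and 2995 and 4195 in mutants 1 and 2, with 19767873 to 35331450 UMIs per library and a median of 5282 to 8549 UMIs per cell. A UMI is a tag that marks 1 captured transcript, and levels are given as CPM, the UMIs of a gene scaled to the same total of UMIs in every class and library. The chemistry reads the 3′ end of each transcript, so CPM needs no correction for transcript length, although genes can still be captured with unequal efficiency. Libraries shared 3 to 5 cell barcodes per pair. Yap1, the targeted coactivator, measured 65.0 and 65.2 CPM over all control cells against 56.4 and 56.0 CPM over all mutant cells, and Wwtr1 (Taz) 118 and 145 CPM against 123 and 132 CPM; 3′ reads need not lie in the deleted exons, so these levels do not check the labels. Sequencing used more than 1 provider without a map to libraries, so provider and genotype cannot be told apart.

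On the GRCm38 build, GENCODE M21 places Lama1 (ENSMUSG00000032796) on chromosome 17 from 67697259 to 67822647. Lama2 (ENSMUSG00000019899) and Lama4 (ENSMUSG00000019846) both lie on chromosome 10, from 26980036 to 27619758 and from 38965515 to 39110188. Lama3 (ENSMUSG00000024421) lies on chromosome 18 from 12333819 to 12583013, and Lama5 (ENSMUSG00000015647) on chromosome 2 from 180176373 to 180225859. Lamb1 (ENSMUSG00000002900) is on chromosome 12 from 31265234 to 31329644, Lamb2 (ENSMUSG00000052911) on chromosome 9 from 108479736 to 108490530, and Lamb3 (ENSMUSG00000026639) on chromosome 1 from 193207699 to 193343878. Lamc1 (ENSMUSG00000026478) is also on chromosome 1, from 153218922 to 153332786.

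Outside mesenchyme, a cell entered a class when it had at least 1 UMI of at least 3 genes of 1 marker list (5 for chondrocytes). It had to meet the minimum of no other such list. Except for chondrocytes and osteoblasts, it could also have UMIs of at most 2 of 6 mesenchymal markers. Mesenchymal cells had UMIs of at least 3 of these 6 markers and met the minimum of no other list. No laminin gene, and none of the partner or receptor genes used below, was a marker. Epithelial cells were split by keratins into basal stratified cells (more UMIs of Krt5, Krt14, Krt15 and Trp63 than of Krt8 and Krt18), suprabasal cells (those with at least 10 UMIs of Krt1 and Krt10) and simple cells. Cells in the order control 1, control 2, mutant 1, mutant 2 numbered 203, 82, 182 and 255 for basal stratified epithelium, 128, 33, 107 and 129 for simple epithelium, 56, 27, 31 and 87 for endothelium, 40, 22, 32 and 20 for glia, and 2400, 1548, 1893 and 2383 for mesenchyme. Mural cells, the pericytes and smooth muscle around vessels, were fewer at 30, 19, 17 and 34. The lists that gated the cells summed as follows: the epithelial markers to 5639 to 6085 CPM in basal cells and 11.6 to 22.5 CPM in mesenchyme, and the endothelial markers to 5319 to 6327 CPM in endothelium.

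RefSeq promoter windows were found for 5 of the 9 members (Lama2, Lama5, Lamb1, Lamb2 and Lamb3), and Lama1, Lama3, Lama4 and Lamc1 had no entry. The 2 printed here are those of the alpha genes with an entry, Lama5 of epithelia and Lama2 of non-epithelial cells, and neither overlaps an annotated exon. Each is the 250 bases before the RefSeq start, 5′ to 3′ on the gene's strand of GRCm38.p6, in lower case, with capitals marking the GC box GGGCGG on either strand.
Lama5, chr2:180225860-180226109, minus strand: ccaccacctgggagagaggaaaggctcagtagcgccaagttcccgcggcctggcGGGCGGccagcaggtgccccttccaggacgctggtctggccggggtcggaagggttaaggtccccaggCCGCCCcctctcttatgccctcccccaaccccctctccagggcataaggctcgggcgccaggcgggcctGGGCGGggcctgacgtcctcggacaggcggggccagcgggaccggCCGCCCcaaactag
Lama2, chr10:27616943-27617192, minus strand: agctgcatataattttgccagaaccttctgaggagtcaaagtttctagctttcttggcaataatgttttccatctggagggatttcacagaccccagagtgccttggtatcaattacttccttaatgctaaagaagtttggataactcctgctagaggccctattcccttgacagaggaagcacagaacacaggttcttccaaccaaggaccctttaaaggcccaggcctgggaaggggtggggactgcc
The Lama5 window was 72.4% G and C and held 4 GC boxes, a motif found in 32.7% of all 32851 windows of this length. The Lama2 window was 47.2% G and C and held none; it lies within the longer GENCODE model of Lama2. Searched on both strands, the TEAD motif GGAATG (12.6% of windows), to which the partners of Yap1 and Wwtr1 bind, and the AP-1 motif TGANTCA (6.75% of windows) matched in neither. Among the other members' windows, 1 of 2 for Lamb3 held GGAATG, 167 bases before the start, and overlaps annotated exons. A match is only these letters in the window.

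Summed over the 9 genes, laminin RNA was highest in the cells of vessels and nerves. The sum reached 934 ± 198 CPM in mural cells, 895 ± 158 CPM in glia and 890 ± 104 CPM in endothelium (mean ± SD, n = 4 libraries), and these ranges overlapped. Chondrocytes stood at 521 ± 89.1 CPM, mesenchyme at 419 ± 39.4 CPM, basal stratified epithelium at 301 ± 29.0 CPM and simple epithelium at 137 ± 29.8 CPM. Macrophages, which lay down no basement membrane, had 31.3 ± 15.3 CPM, most of it Lamc1 (16.3, 18.3, 50.1 and 25.8 CPM). No UMI of Lama1, Lama4, Lama5 or Lamb3 was counted in macrophages of any library. Whether macrophages made their Lamc1 or carried it from other cells was not tested.

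**Figure D1:**
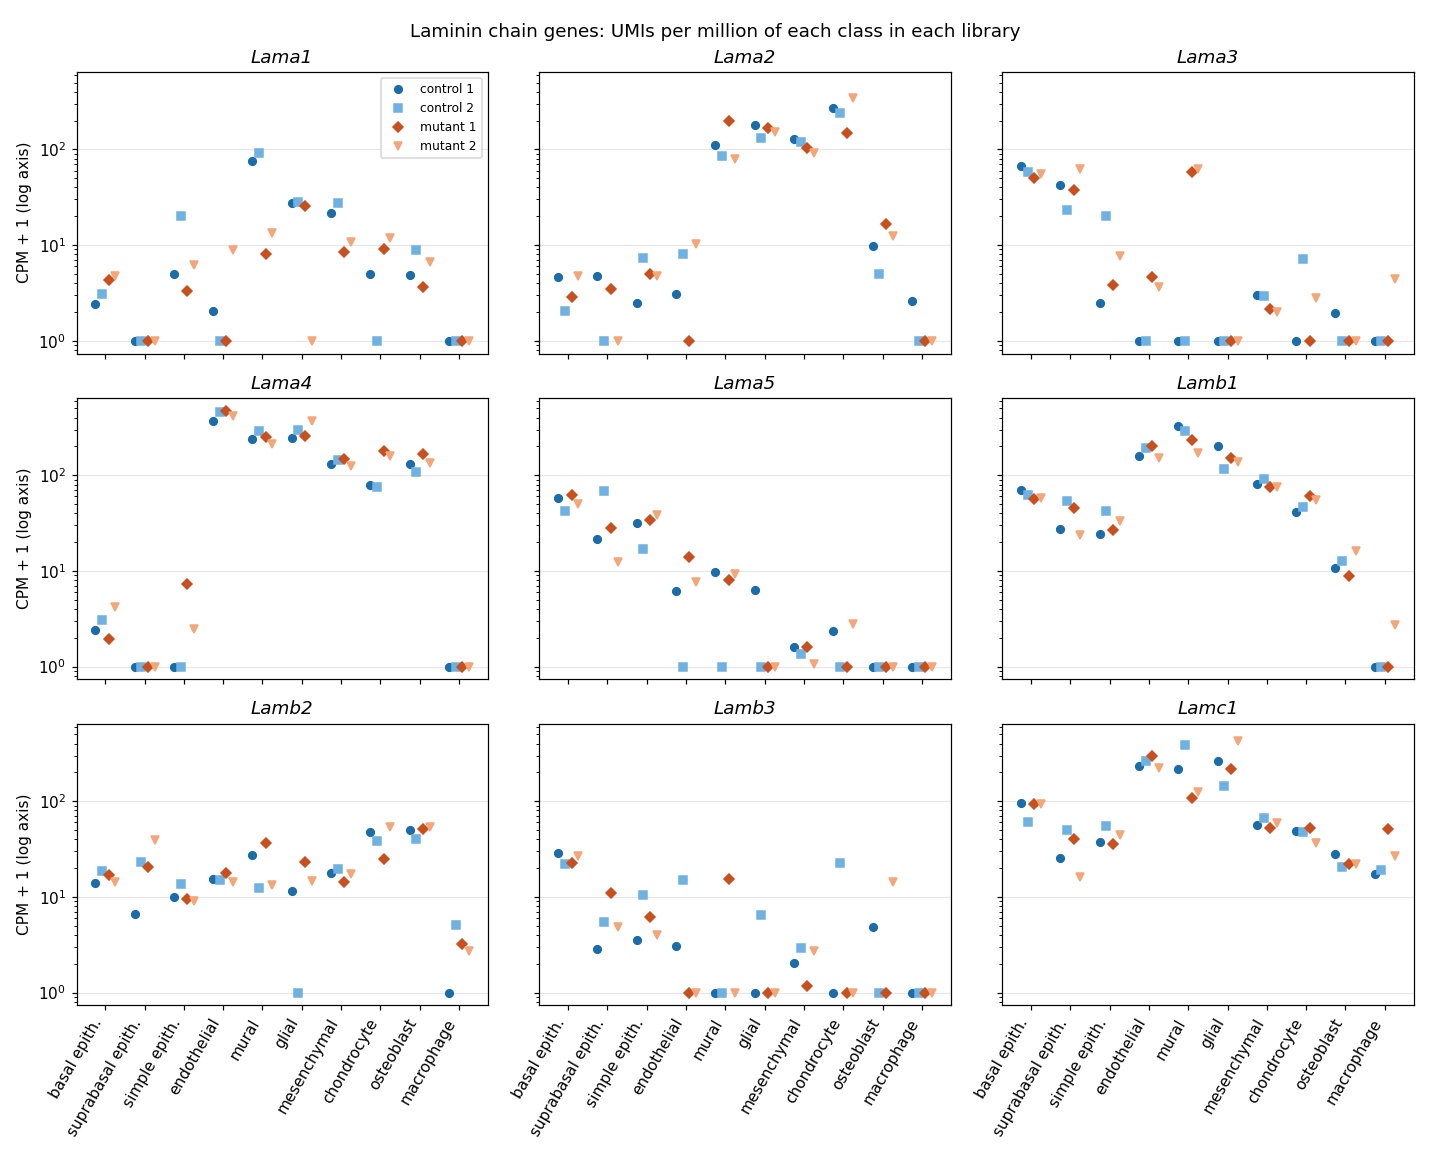
Levels of the 9 laminin chain genes in 10 cell classes, as CPM + 1 on a log axis, 1 point per library (blue controls, orange mutants). Lama5 and Lamb3 are highest in epithelia, Lama4 in endothelium at 364 to 474 CPM, and Lama3 in mural cells is at 0 in both controls and at 56.9 and 61.9 CPM in the mutants.

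Lama5 encodes the alpha-5 chain of the laminins found under most epithelia. Its level was 56.8, 41.6, 61.9 and 49.0 CPM in basal stratified epithelium (control 1, control 2, mutant 1, mutant 2) and 31.1, 15.9, 33.2 and 37.0 CPM in simple epithelium. Every basal library lay above every simple one. In suprabasal cells Lama5 ranged from 11.4 to 66.8 CPM, a spread that took in both. Endothelium followed at 0 to 12.9 CPM and mural cells at 0 to 8.74 CPM, and mesenchyme held 0.409 ± 0.255 CPM (SD, n = 4).

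Lama3 encodes the alpha-3 chain of the laminin that anchors hemidesmosomes in stratified epithelium. It stood at 65.4, 57.2, 49.6 and 54.9 CPM in basal cells and 22.3 to 60.9 CPM in suprabasal cells, ranges that overlapped. Simple epithelium had 1.50, 19.0, 2.86 and 6.66 CPM, on 3 to 9 UMIs per library, and no UMI was counted in glia. Mesenchyme held 1.51 ± 0.521 CPM. The mural values are described with the genotypes below.

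Lama4 encodes the alpha-4 chain of a main laminin of vessel walls and peripheral nerve. It was highest in the mean in endothelium, at 364, 457, 474 and 416 CPM. Glia came next at 246, 299.8, 257 and 364 CPM, and mutant 2 of the glia overlapped control 1 of the endothelium. Mural cells stood at 236, 292, 249 and 211 CPM, overlapping glia but below every endothelial library. Mesenchyme stood at 125 to 148 CPM, osteoblasts at 106 to 165 CPM and chondrocytes at 73.8 to 180.0 CPM, all 3 overlapping, and basal epithelium at 1.92 ± 0.987 CPM.

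Lama2 encodes the alpha-2 chain of the laminin of muscle and Schwann cells. Chondrocytes held the most among the larger classes, at 271, 237, 148 and 341 CPM, and the few skeletal muscle cells (6 to 15 per library) overlapped them at 181 to 283 CPM. Glia stood at 177, 131, 167 and 151 CPM, mural cells at 109, 84.3, 199 and 78.5 CPM and mesenchyme at 127, 117, 102 and 90.5 CPM. Endothelium had 0 to 9.25 CPM and basal epithelium 1.04 to 3.77 CPM, so that this chain set mural cells apart from the endothelium they surround.

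Lama1 encodes the alpha-1 chain of the first laminin of the embryo, later confined to a few sites such as the pia. It stood below Lama2 and Lama4 in every mesenchymal library, at 20.7, 26.5, 7.56 and 9.87 CPM. In mural cells it stood at 74.3, 89.9, 7.11 and 12.4 CPM, and in glia at 26.4, 27.3, 24.7 and 0 CPM, the last in a library of 20 glial cells. In both mesenchyme and mural cells the 2 controls lay above the 2 mutants.

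Of the beta chains, Lamb1, the partner in most laminins, was counted in every library of the epithelial, vascular, glial and mesenchymal classes. Mural cells had 328, 292, 235 and 169 CPM and endothelium 159, 193, 201 and 149 CPM, overlapping ranges, with glia at 114 to 201 CPM and mesenchyme at 73.7 to 90.7 CPM. Basal epithelium stood at 54.8 to 69.8 CPM. Lamb2, the beta chain of synaptic and kidney laminins, had another order: osteoblasts led at 49.4, 39.3, 49.8 and 53.1 CPM, overlapping chondrocytes at 47.0, 36.9, 24.0 and 52.1 CPM, while mesenchyme stood at 13.5 to 18.4 CPM. Lamb3, the beta chain of the hemidesmosome laminin, was at 27.7, 20.8, 21.7 and 25.8 CPM in basal epithelium. Elsewhere it stood at 1.87 to 9.86 CPM in suprabasal and 2.51 to 9.51 CPM in simple epithelium, and at 0.177 to 1.94 CPM in mesenchyme. A single library stood out among chondrocytes, control 2 with 7 UMIs or 21.5 CPM. These lay in 2.33% of its 43 chondrocytes, a single cell.

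Lamc1, the gamma chain of nearly all laminins outside hemidesmosomes, was at 264, 142, 216 and 426 CPM in glia, 232, 261, 297 and 222 CPM in endothelium and 214, 382, 107 and 124 CPM in mural cells. These 3 overlapped and lay above mesenchyme at 51.8 to 65.4 CPM. Basal epithelium stood at 95.6, 60.3, 92.6 and 91.5 CPM, with control 2 apart from the other 3. Its relative Lamc3 was at 83.1, 191, 0 and 12.4 CPM in mural cells and 5.36 to 8.83 CPM in mesenchyme.

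Counted within the alpha and beta chains, each class had its own mix of RNAs. In basal epithelium the alpha UMIs were 49.0% Lama3 and 44.9% Lama5 (SD 5.39 and 5.44, n = 4), and the beta UMIs 60.7% Lamb1 and 24.1% Lamb3. Endothelium was nearly uniform, with 96.7% Lama4 and 90.5% Lamb1. Glia combined 61.9% Lama4 and 33.5% Lama2 with 92.2% Lamb1. Mesenchyme was 52.1% Lama4, 41.2% Lama2 and 5.95% Lama1, with 82.1% Lamb1. Chondrocytes leaned to Lama2 (65.5%, SD 14.9) and split the beta chain between Lamb1 and Lamb2 (53.1% and 41.7%). Osteoblasts were 89.8% Lama4 (SD 0.807) and, unlike the other classes plotted, mostly Lamb2 in the beta chain (76.7%, SD 8.77, on 13 to 65 beta UMIs per library). Simple epithelium was 61.2% Lama5, but with an SD of 24.1: 3 libraries held 68.2% to 81.6%, and control 2 held 26.3% on 19 alpha UMIs. Shares are of RNA, and which trimers the cells secreted was not measured.

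**Figure D2:**
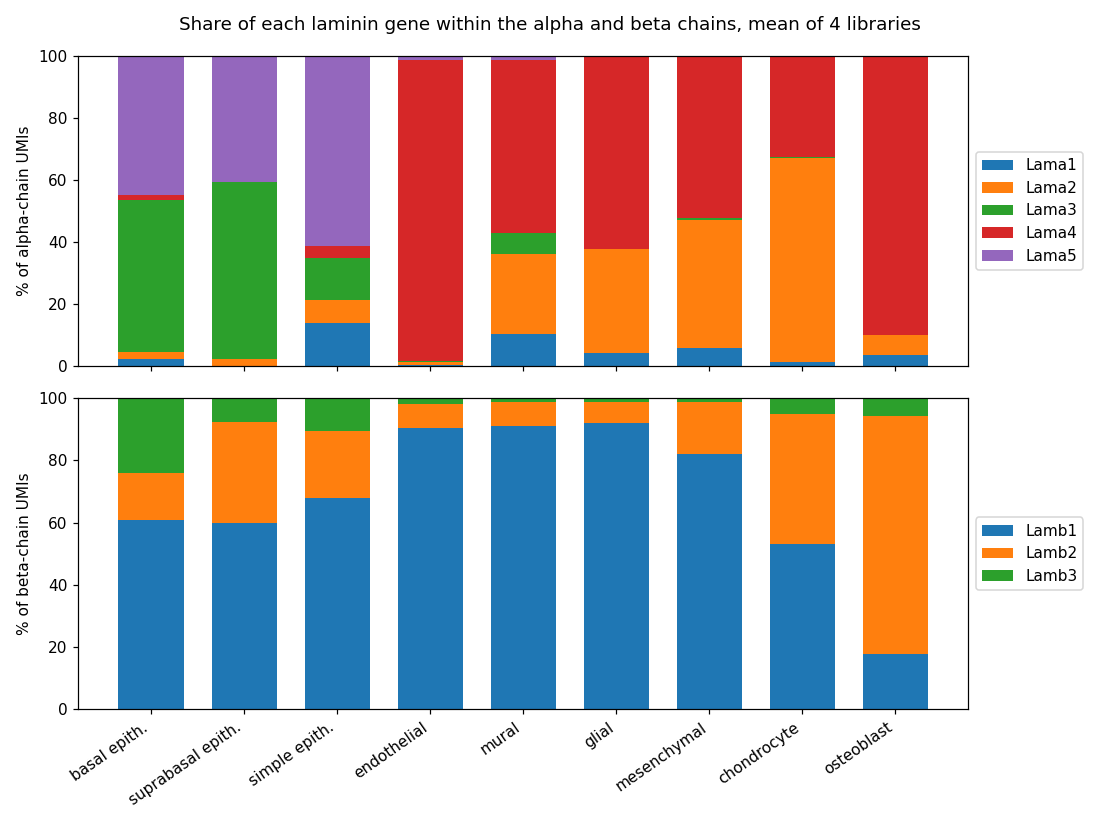
Share of each gene in the alpha- and beta-chain UMIs (%) of 9 cell classes, as stacked bars of the mean of 4 libraries. Epithelia are mostly Lama3 and Lama5, endothelium 96.7% Lama4, and osteoblasts 76.7% Lamb2.

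Between genotypes, these shares were set against each other for the 11 chain genes in 6 classes by exact two-sided permutation tests. With 2 against 2 libraries the smallest p such a test can give is 0.333, so none of the 66 tests could pass the threshold. In mesenchyme the Lama1 share was 7.40% and 9.13% in controls against 2.92% and 4.36% in mutants, and the Lama4 share 46.5% and 49.7% against 57.2% and 55.2%. In mural cells the Lama1 share was 17.3% and 19.3% against 1.37% and 3.33%.

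Per cell, detection depends on depth, so cells were also thinned to 2000 UMIs each. A UMI of Lama4 was found in 80.7% ± 13.2 of endothelial cells as sequenced and in 46.6% ± 5.16 after thinning, against none of the macrophages either way. The median depth was 4904 to 16698 UMIs for endothelial cells and 7520 to 10232 UMIs for macrophages. Lama5 was found in 34.6% ± 9.93 of basal epithelial cells and 9.39% ± 2.45 after thinning, and Lama2 in 35.4% ± 5.81 of mesenchymal cells and 15.9% ± 2.47 after thinning (SD, n = 4). Detection thus moved with depth, and a class in which few cells show a chain cannot be called free of it.

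The difference between classes was then tested with edgeR's quasi-likelihood test on counts summed per class and library, with a term for the library and Benjamini-Hochberg adjustment over all genes tested. Classes differ widely, and the share of all genes past the adjusted threshold of 0.05 is given with each count. Against mesenchyme, basal stratified epithelium was higher in 4 members and lower in 4, where 52.1% of all genes passed. Lama5 was higher by 6.85 ± 0.279 on the log2 scale (SE, n = 4 pairs; edgeR adjusted p = 9.5e-18), Lama3 by 5.24 ± 0.305 and Lamb3 by 4.54 ± 0.468. Lama4 fell by 6.17 ± 0.315 and Lama2 by 5.24 ± 0.279, and Lama1 by 2.41 ± 0.481. All 6 had the same direction in 4 of 4 libraries. The shared chains differed little: Lamc1 was higher by 0.60 ± 0.164 in 3 of 4 libraries and Lamb1 fell by 0.36 ± 0.129 in 4 of 4. Both calls were lost without 1 library, with little change in size. Lamc1 differed by 0.52 without control 1 (adjusted p = 0.0586), and Lamb1 by -0.35 without mutant 1 (0.0695) and -0.38 without mutant 2 (0.0722). Lamb2 differed by -0.11 ± 0.200 and did not pass.

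Of 21 basement membrane partners tested in this comparison 9 were higher and 10 lower in basal cells, and of 13 receptors 10 were higher and 3 lower. Among those of lowest p were Bcam, a receptor of the alpha-5 chain (higher by 5.96 ± 0.174), Itga6, the alpha subunit of the laminin-binding integrins of basal cells (3.75 ± 0.179), Fras1 (3.02 ± 0.118) and Frem2 (4.98 ± 0.210), both of the complex that fixes embryonic epidermis to its dermis. Bcam stood at 135, 126, 151 and 174 CPM in basal cells against 1.79 to 2.83 CPM in mesenchyme, without overlap.

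Simple epithelium differed from mesenchyme in all 9 members, 3 higher and 6 lower, where 55.7% of all genes passed. Lama5 was higher by 5.98 ± 0.309, and Lama4 fell by 5.86 ± 0.333, Lama2 by 5.15 ± 0.304 and Lamb1 by 1.55 ± 0.159. Of the other 5 calls, 4 were lost without 1 library. Lamc1 (-0.64 ± 0.198) had an adjusted p of 0.0704 and Lama1 (-1.57 ± 0.477) of 0.148 without control 1, Lamb3 (1.96 ± 0.687) of 0.205 without mutant 1, and Lama3 (1.55 ± 0.529) of 0.0595 without control 2 and 0.176 without mutant 2. With those libraries left out the log2 difference was -0.59 for Lamc1, -1.12 for Lama1, 1.27 for Lamb3, and 1.21 and 1.17 for Lama3. DESeq2 did not call Lama1 (adjusted p = 0.125) or Lamb3 (0.0642). Partners were mostly lower, at 6 higher and 13 lower of 21, with Bcam higher by 4.16 ± 0.205 and Fras1 by 2.30 ± 0.122, while Sparc (-2.83 ± 0.143), Col4a2 (-3.29 ± 0.199) and Frem1 (-6.09 ± 0.338) were lower. Of 13 receptors 6 were higher and 4 lower.

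Basal against simple epithelium, 6 members were higher in basal cells and none was lower, where 29.6% of all genes passed. Lama3 was higher by 3.69 ± 0.391, Lamb3 by 2.58 ± 0.560, Lamc1 by 1.24 ± 0.206, Lamb1 by 1.18 ± 0.172, Lama5 by 0.87 ± 0.224 and Lamb2 by 0.78 ± 0.280, in 4 of 4 libraries each. Lama5 had an adjusted p of 0.0745 without control 1, and Lamb2 had 0.118 without control 1, 0.137 without mutant 1, 0.159 without mutant 2 and 0.0564 in DESeq2. Of 21 partners 13 were higher and 1 lower, the last being Hmcn1, which encodes hemicentin 1 (-1.71 ± 0.177). Col4a2 was higher by 2.17 ± 0.226, and of 13 receptors 9 were higher, among them Bcam (1.80 ± 0.164) and Itgb4, the beta subunit of the hemidesmosome integrin (2.25 ± 0.245).

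Suprabasal cells, which have left the basement membrane, could be compared only after the minimum of 20 cells per library was lowered to 15, a choice made after the cell numbers were seen. Of the members 3 were higher in basal cells, where 22.9% of all genes passed: Lamc1 by 1.36 ± 0.339, Lamb3 by 2.18 ± 0.790 and Lamb1 by 0.67 ± 0.239. None was called without control 1, and without mutant 2 Lamb3 (adjusted p = 0.126) and Lamb1 (0.161) were lost. DESeq2 called Lamc1 of these 3. Lama3 stood at 56.8 ± 6.58 CPM in basal and 40.3 ± 15.9 CPM in suprabasal cells, a log2 difference of 0.36 ± 0.399 that did not pass. Lama5 differed by 0.77 ± 0.345 and did not pass, but without control 2 it was higher in basal cells by 1.32 (adjusted p = 0.00266). No UMI of Lama1 or Lama4 was counted in suprabasal cells. Of 21 partners 14 were higher in basal cells, and of 12 receptors 8 were higher and 1 was lower, Sdc1, the syndecan of stratified epithelia (-1.96 ± 0.146). Itga6 was higher by 2.39 ± 0.303, Itgb1 by 1.66 ± 0.187, Frem2 by 2.51 ± 0.344 and Hmcn1 by 3.96 ± 0.578.

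**Figure D3:**
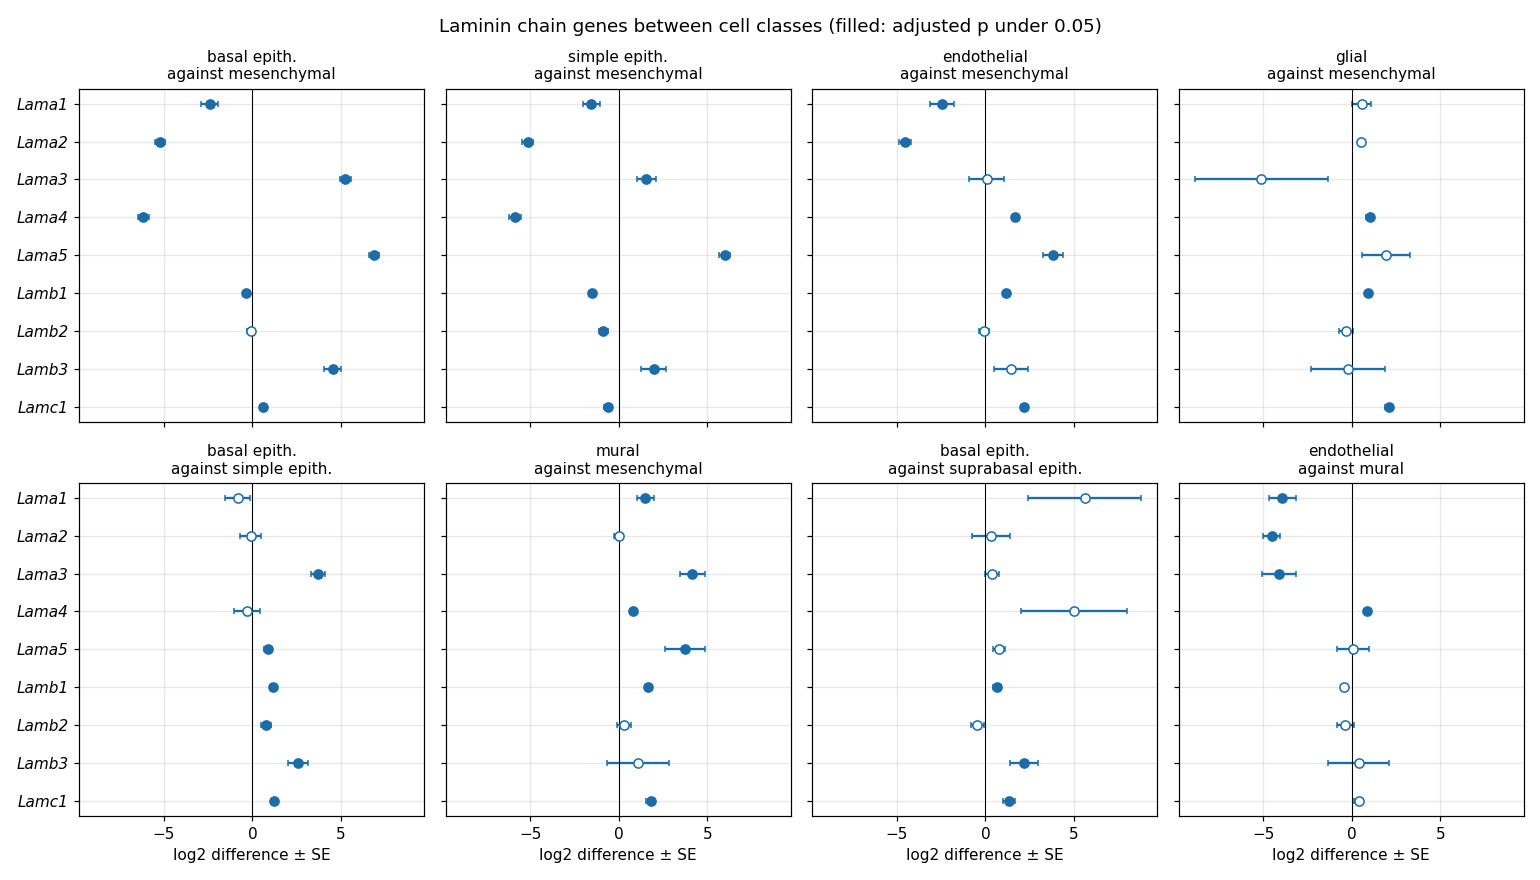
Differences of the 9 members between pairs of cell classes on the log2 scale (points, ± SE over 4 libraries), filled where the edgeR adjusted p is under 0.05. Lama5 is 6.85 higher and Lama4 6.17 lower in basal epithelium than in mesenchyme, and Lama2 is 4.54 lower in endothelium than in mural cells; open points with long bars rest on few or no UMIs in one class.

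Endothelium was higher than mesenchyme in 4 members and lower in 2, where 48.1% of all genes passed. Lamc1 was higher by 2.17 ± 0.167, Lama4 by 1.69 ± 0.164 and Lamb1 by 1.18 ± 0.131, in 4 of 4 libraries each, and Lama5 by 3.82 ± 0.589 in 3 of 4. Lama2 fell by 4.56 ± 0.346 and Lama1 by 2.45 ± 0.686, the last losing its call without control 1 (adjusted p = 0.0847). Of 21 partners 11 were higher and 8 lower, and of 13 receptors 9 were higher and 3 lower. The leading ones were Col15a1 (7.25 ± 0.178), Col18a1 (5.99 ± 0.256) and Col4a2 (3.25 ± 0.127), collagens of the vascular basement membrane, and the integrin subunits Itga2 (7.52 ± 0.261) and Itga6 (5.36 ± 0.187).

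Mural cells, tested under the minimum of 15 cells, were higher than mesenchyme in 6 members, where 19.4% of all genes passed. Lamc1 was higher by 1.80 ± 0.253, Lamb1 by 1.65 ± 0.166 and Lama4 by 0.82 ± 0.206, in 4 of 4 libraries each. The remaining 3 calls were lost without any 1 of up to 3 libraries, at log2 differences of 1.28 and 1.35 for Lama1, 3.09 for Lama3 and 3.21 to 3.87 for Lama5. Lama1 (1.50 ± 0.486) had an adjusted p of 0.254 without control 1, 0.125 without control 2 and 0.191 in DESeq2, Lama3 (4.15 ± 0.710) of 0.0624 without mutant 2, and Lama5 (3.72 ± 1.12, on 5 mural UMIs in all) of 0.123 without control 1, 0.0513 without mutant 1 and 0.119 without mutant 2. Of these 3, Lama3 was higher in 2 of 4 libraries, the mutants, as both control mural sums had 0 UMIs. Lama1 was higher in 3 of 4, with its high mural levels in the controls, and Lama5 in 3 of 4. Lama2 averaged 118 CPM in mural cells and 109 CPM in mesenchyme and did not pass (SE of the log2 difference 0.256). Of 21 partners 8 were higher and 6 lower and of 12 receptors 7 were higher, led by Itga1 (5.35 ± 0.247), the collagen and laminin receptor of smooth muscle, Mcam (5.01 ± 0.238), a receptor of the alpha-4 chain, Col4a2 (3.22 ± 0.164), Col4a1 (3.48 ± 0.194) and Itga6 (3.60 ± 0.290).

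Set directly against mural cells, endothelium was higher in Lama4 by 0.88 ± 0.206 (4 of 4 libraries) and lower in Lama2 by 4.54 ± 0.455, Lama1 by 3.93 ± 0.769 and Lama3 by 4.12 ± 0.977, where 22.9% of all genes passed. The Lama3 difference came from the mutant libraries and had an adjusted p of 0.109 without mutant 2. Lamb1 differed by -0.46 ± 0.174, lower in endothelium in 4 of 4 libraries, at an adjusted p of 0.0505. It passed in DESeq2 (0.0381), with RLE size factors (0.0212), with at least 4 markers required (0.0325), without the highest Scrublet scores (0.0409) and without mutant 2 (0.0469). It did not pass with at least 1000 genes per cell, without the filter on low counts or without the library term. Nor did it pass without control 1, control 2 or mutant 1. Of 21 partners 7 were higher and 6 lower in endothelium, and of 12 receptors 2 were higher and 5 lower. Col15a1 was higher by 4.80 ± 0.336 and Hspg2, the perlecan core protein, by 3.28 ± 0.293. Sdc2 fell by 4.20 ± 0.345 and Itga1 by 2.69 ± 0.257. Itga2 had 316 UMIs in endothelium and 0 in mural cells, at least 30.9-fold higher against a floor of 3 UMIs over the mural libraries.

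Glia were higher than mesenchyme in 3 members and lower in none, where 26.4% of all genes passed. Lamc1 was higher by 2.07 ± 0.195, Lama4 by 1.00 ± 0.192 and Lamb1 by 0.94 ± 0.161, in 4 of 4 libraries each. Lama2 was also higher in 4 of 4, by 0.52 ± 0.202, but had an adjusted p of 0.0554, and 0.0410 without control 2. Of 21 partners 11 were higher and 4 lower and of 13 receptors 8 were higher and 2 lower, led by Itga6 (4.74 ± 0.218), Mcam (4.25 ± 0.219), Itga2 (6.20 ± 0.385), Col15a1 (4.85 ± 0.289) and Col18a1 (4.55 ± 0.312). Itga6 stood at 209, 273, 236 and 275 CPM in glia and 6.45 to 9.80 CPM in mesenchyme.

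Over the 40 sums of 10 classes and 4 libraries, the gene most like each member was sought among 7194 genes by Pearson correlation of log2(CPM + 10). The points share libraries and classes, so the values describe the pattern. Lama5 was most like its receptor gene Bcam (r = 0.94), Lamb3 most like Col17a1, a hemidesmosome collagen (0.69), and Lama3 most like Kcnh7 (0.83). Lama4 followed Zeb1, Gnb4 and the nidogen gene Nid1 (0.94, 0.94 and 0.93). Lamb1 followed Nr2f2 and Col4a1 (0.95 and 0.93), and Lamc1 followed Mcam, Nr2f2 and Col4a1 (0.90, 0.88 and 0.87). Lama2 was most like Postn, which encodes periostin (0.94), Lamb2 most like Golgb1 (0.82), and Lama1 most like Vtn, a pericyte gene (0.86).

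Control and mutant were compared within each class, with edgeR's quasi-likelihood test on 2 against 2 libraries. In the 8 comparisons with at least 20 cells per library no member passed. That holds over all cells, where 0% of genes passed, in mesenchyme (0.0192%), basal epithelium (0.0451%), simple epithelium (0%), endothelium (0.131%), glia (0%), chondrocytes (0%) and macrophages (0.0476%). The filter on low counts left 9 members to test over all cells, 8 in mesenchyme, 6 in basal and 5 in simple epithelium. In endothelium only Lama4, Lamb1 and Lamc1 were tested, and in glia these and Lama2. In chondrocytes Lama2, Lama4, Lamb1, Lamb2 and Lamc1 were tested, and in macrophages only Lamc1. The remaining members were not tested in those classes. Members at an unadjusted edgeR p under 0.05 numbered 2 of 9 over all cells, where 883 of all 18080 genes did so. In mesenchyme they numbered 4 of 8, where 1185 of all 15644 genes did so. There was 1 each in chondrocytes and macrophages, for which the share of all genes is not given here, and 0 in the other 4. DESeq2 called Lama1 over all cells (adjusted p = 0.00718) and in mesenchyme and no member in the other 6. Without control 1, edgeR also called Lama1 over all cells, at -1.62 and an adjusted p of 0.0159. Suprabasal cells (0.0193% of genes passed) and osteoblasts (0%), compared under the minimum of 15 cells, had no member called by either tool, and none at an unadjusted p under 0.05. There edgeR tested only Lama3, Lamb1 and Lamc1 in suprabasal cells and Lama4 and Lamb2 in osteoblasts. Lama4 in endothelium differed by 0.10 ± 0.217 and Lama5 in basal epithelium by 0.11 ± 0.206, and Lamc1 in glia by 0.48 ± 0.349 (log2 mutant minus control ± SE). In chondrocytes Lama4 measured 77.9 and 73.8 CPM in controls against 180.0 and 156 CPM in mutants, which did not overlap, with a log2 difference of 1.09 ± 0.271 and an edgeR adjusted p of 0.94. In macrophages Lamc1 differed by 1.10 ± 0.461 at an adjusted p of 0.997.

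In mesenchyme most members were lower in the mutants in CPM. Both mutants were below both controls for 5 of the 8 members with at least 40 UMIs and above for 0, where 14.2% of all such genes were below and 25.6% above. Over all cells it was 4 of 9 below and 0 above, where 13% of all such genes were below and 24.9% above. The median log2 difference of the 8 members tested in mesenchyme was -0.33, against 0.0019 for all genes. Single differences were small for the abundant chains: Lama2 differed by -0.38 ± 0.105, Lamb1 by -0.24 ± 0.0987 and Lamb2 by -0.27 ± 0.142, none past the threshold, and Lama4 stood at 137 CPM in controls and 136 CPM in mutants. Of the scarce chains, Lama3 averaged 1.96 CPM in controls and 1.06 CPM in mutants, a difference of -0.91 ± 0.346. Lamb3 differed by -0.70 ± 0.801, and neither passed.

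Lama1 had the largest of these differences. As given above, its 2 control values did not overlap its 2 mutant values. The log2 difference was -1.48 ± 0.181, with an edgeR adjusted p of 0.0843. In edgeR it passed without a filter on low counts (adjusted p = 2.47e-17), where 530 of all 24566 genes passed, against 3 of 15644 with the filter. It also passed in DESeq2 (7.09e-06), where 46 of all 24566 genes did. No member was called with RLE size factors, with at least 1000 genes per cell or with at least 4 markers required. None was called without the highest Scrublet scores or with cells thinned to 2000 UMIs. The log2 difference was -1.65 without control 1 and -1.67 without mutant 2. Mesenchymal cells were then split by a list of 7 meningeal markers, after the levels had been seen. The same model was fitted to the split, but its p-values are not used as tests, so the split is a description. Cells with 2 or more of these markers numbered 263, 208, 163 and 182. There Lama1 stood at 91.4 and 94.4 CPM against 12.6 and 12.8 CPM in mutants, a log2 difference of -2.89 ± 0.203. In the remaining mesenchyme it stood at 9.85 and 12.8 CPM against 7.01 and 9.54 CPM, a difference of -0.49 ± 0.211. Lamc3 followed in the marked cells, at 28.8 and 22.1 CPM against 6.60 and 4.26 CPM, as did Col4a6 (-3.11 ± 0.404), Col18a1 (-2.37 ± 0.340), Col4a1 (-1.18 ± 0.165) and Col4a2 (-1.00 ± 0.151). Lamc3 and these partners were named because they had the lowest p in the fit of the marked cells, so they were picked for a difference. Lama2 in these cells was at 195 and 187 CPM against 127 and 148 CPM, and Lama4 at 169 and 202 CPM against 183 and 155 CPM.

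The marked cells themselves differed between genotypes. Their summed meningeal list came to 796 and 854 CPM for controls and 519.8 and 769 CPM for mutants. Slc6a13, a transporter of the meninges, stood at 78.3 and 50.1 CPM against 10.2 and 26.3 CPM, and Zic1, a transcription factor of forebrain meninges, at 118 and 170 CPM against 35.4 and 83.1 CPM. Foxc1 was at 161 and 159 CPM against 122 and 161 CPM, and Foxd1 at 154 and 168 CPM against 101 and 180.5 CPM. The pericyte list described next summed to 292 and 264 CPM against 48.0 and 93.8 CPM. Whether the meningeal tissue included in the dissection differed between libraries was not tested, and in these data fewer cells of a kind and less RNA per cell of that kind cannot be told apart within the whole mesenchymal class.

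**Figure D4:**
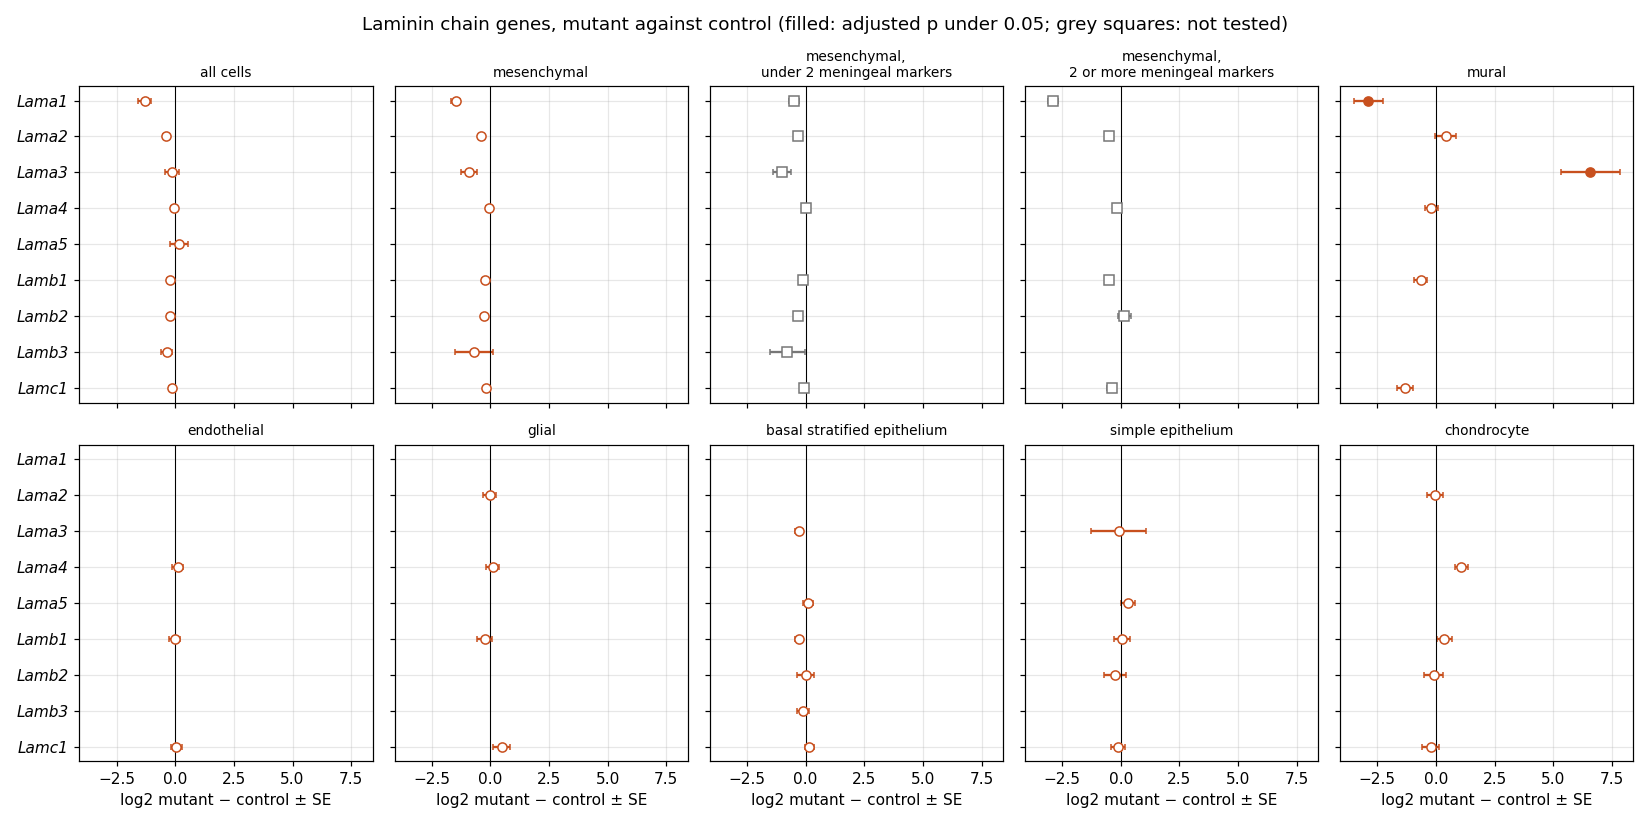
Mutant minus control differences of the members on the log2 scale (± SE, 2 against 2 libraries) in 10 sets of cells, filled where the edgeR adjusted p is under 0.05; grey squares mark subsets chosen after the levels were seen, which were not tested. Only Lama1 and Lama3 in mural cells are filled, and Lama1 is also low in all mesenchymal panels, least so in cells with under 2 meningeal markers. Both filled genes met the filter on low counts through the group where each is high, and DESeq2 called neither.

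Mural cells were the class in which members passed, under the minimum of 15 cells. Of the 6 members tested 1 was lower and 1 higher in mutants, where 2.03% of all genes passed. Lama1 counted 17 and 16 UMIs in controls and 1 and 3 UMIs in mutants, or 74.3 and 89.9 CPM against 7.11 and 12.4 CPM, and fell by 2.89 ± 0.622 (edgeR adjusted p = 0.0279). Pooled, the controls were 7.77-fold higher, with an exact 95% counting interval of 2.76 to 30.2. Lama3 had 0 UMIs in both controls and 8 and 15 UMIs in mutants, or 56.9 and 61.9 CPM, at least 8.14-fold higher against a floor of 3 UMIs over the controls (adjusted p = 0.0184). The filter on low counts asks for a minimum in 2 libraries, and Lama1 met it through the controls and Lama3 through the mutants, the groups where each is high, so that their p-values come from a selection that favours a difference. A Lama3 UMI was found in 0 of 30 and 0 of 19 control cells, which allows shares of cells with a UMI, not of cells expressing the gene, of up to 10.0% and 15.8% (3 cells of each total). In mutants it was found in 4 of 17 cells (23.5%, exact 95% interval 6.81% to 49.9%) and 9 of 34 cells (26.5%, 12.9% to 44.4%). In macrophages it was found in 0.333% of cells on average. The median depth was 6793.5 to 9505 UMIs in mural cells and 7520 to 10232 UMIs in macrophages. The intervals and floors cover counting error only.

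Lamb3, the usual beta partner of Lama3, had 0 and 0 UMIs in control and 2 and 0 UMIs in mutant mural cells. The 12 epithelial markers summed to 8.74 and 5.62 CPM in controls against 42.6 and 0 CPM in mutants, with 7 of the 12 at 0 in all 4 libraries. The suprabasal genes Krt1 and Krt10, which are not on that list, summed to 39.3 and 22.5 CPM against 14.2 and 41.3 CPM. The part of epithelial RNA in the Lama3 result was not tested. Lamc3 had 19 and 34 UMIs in controls and 0 and 3 in mutants, 83.1 and 191 CPM against 0 and 12.4 CPM. Its pooled level was 16.6-fold higher in controls, with an exact 95% counting interval of 5.39 to 83.2 (adjusted p = 0.0134), and it met the filter on low counts through the controls alone. Lamc1 stood at 214 and 382 CPM against 107 and 124 CPM, without overlap, a log2 difference of -1.32 ± 0.340 at an adjusted p of 0.0552. Lamb1 stood at 328 and 292 CPM against 235 and 169 CPM and differed by -0.65 ± 0.281. Lama4 (236 and 292 against 249 and 211 CPM) and Lama2 (109 and 84.3 against 199 and 78.5 CPM) overlapped.

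Among the partners in mural cells, Col18a1, which encodes the precursor of endostatin, fell by 2.33 ± 0.461, from 162 and 129 CPM to 21.3 and 33.0 CPM. Smoc2, a secreted calcium-binding matrix protein, had 0 UMIs in controls and stood at 71.1 and 53.7 CPM in mutants, at least 8.14-fold higher. Tinagl1, a secreted basement membrane glycoprotein, was higher by 2.88 ± 0.635, at 30.6 and 0 CPM against 135 and 124 CPM. These 3 were the partners called of 11 tested, with 0 of 7 receptors, and each had met the filter on low counts through the group where it is high.

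The mural calls were lost without any 1 of several libraries, while the fitted differences stayed about as large. DESeq2 called no member, and gave no adjusted p for Lama1 and Lama3, and with cells thinned to 2000 UMIs neither gene passed the filter on low counts. Lama1 had adjusted p-values of 0.293 without control 1, 0.321 without control 2 and 0.155 without mutant 2, at log2 differences of -3.03, -2.80 and -3.42, and 0.0956 with at least 4 markers required. Lama3 had 0.137 without control 1, 0.0658 without control 2 and 0.230 without mutant 1, at fitted differences of 6.50, 6.61 and 6.77 that hold a prior count, and was not tested without mutant 2. Lamc1 differed by -1.69 and passed without control 1 (adjusted p = 0.000421), and it passed without the filter on low counts (0.00431) and without the highest Scrublet doublet scores (0.0295).

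Genes that mark kinds of mural cell also stood apart between the genotypes, and fewer cells of a kind and less RNA per cell cannot be told apart here. Vtn, a gene of forebrain pericytes, stood at 669 and 787 CPM in control mural cells against 78.2 and 49.6 CPM in mutant ones. Tbx18 was at 223 and 315 CPM against 14.2 and 41.3 CPM, and the list of 6 pericyte genes that holds both summed to 1854 and 1708 CPM against 903 and 1045 CPM. Foxd1 was at 96.2 and 157 CPM against 7.11 and 4.13 CPM and Zic1 at 122 and 124 CPM against 7.11 and 12.4 CPM, while the meningeal list that holds both summed to 380.4 and 433 CPM against 213 and 124 CPM. Aldh1a2, of the same list, went the other way, at 13.1 and 5.62 CPM against 114 and 49.6 CPM. Abcc9 (393 and 348 against 547 and 483 CPM) and Kcnj8 (367 and 236 against 256 and 392 CPM) are on the pericyte list with Vtn and Tbx18. Abcc9 was higher in both mutants, and Kcnj8 overlapped. Both genes also gated the mural cells, so their presence in all 4 libraries was set in part by the gate. In endothelium, the list of 7 brain-type vessel genes summed to 488 and 761 CPM against 157 and 218 CPM, and no member passed there, as given above. The part of these differences in the Lama1, Lama3 and Lamc3 results was not tested.

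**Figure D5:**
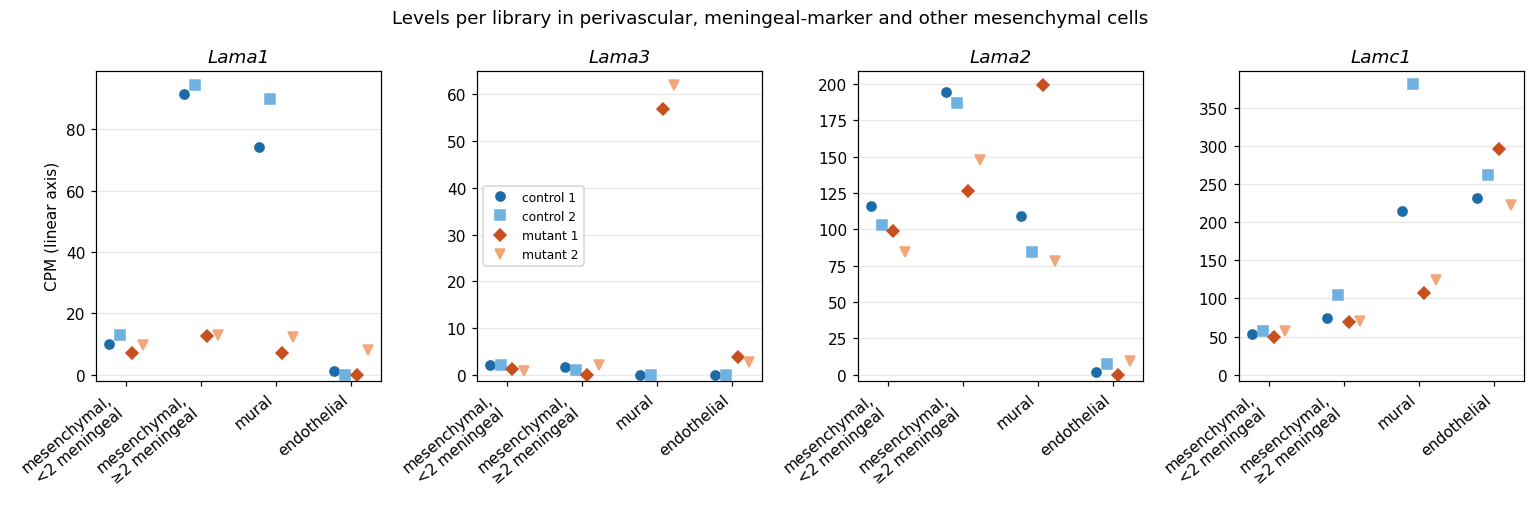
Levels of Lama1, Lama3, Lama2 and Lamc1 in CPM on linear axes, 1 point per library, in mesenchymal cells with under 2 and with 2 or more meningeal markers, mural cells and endothelium. Both controls lie at 91.4 and 94.4 CPM of Lama1 in the marked mesenchymal cells and the mutants at 12.6 and 12.8 CPM, and Lama3 in mural cells appears only in the 2 mutants.

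Finally, the genotype difference of each class was compared with that of mesenchyme in 1 fit over all classes. No member passed for basal epithelium (0.00849% of all genes passed), simple epithelium (0%), endothelium (0.0509%), glia (0.00849%), chondrocytes (0%) or macrophages (0%), with edgeR as the tool run. In the same order, 1, 1, 2, 0, 2 and 1 members had an unadjusted p under 0.05. The share of all genes at that threshold is not given here, so these counts show no excess. For mural cells, added after their levels were seen, none passed either (0.0086%), with 2 members at an unadjusted p under 0.05, again without that share. There Lama1 differed by -1.49 ± 0.953 (edgeR adjusted p = 0.850) and Lamc1 by -1.15 ± 0.441 (0.517). Lama3, whose fitted value rests on 0 UMIs in controls, had an adjusted p of 0.135, and 4.40e-05 without the filter on low counts. The mutant values of Lama1 in mural cells were therefore not shown to depart further from controls than those of mesenchyme. The pathway gene that passed was Col18a1, whose difference was higher in glia by 2.35 ± 0.358 and in endothelium by 1.81 ± 0.305 than in mesenchyme, where it counted 218 and 158 UMIs in controls against 54 and 76 UMIs in mutants.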

How the data were processed

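Raw UMI counts per gene and barcode were deposited by the authors for 4 droplet libraries (10x, 3′ chemistry, per the labels' protocols). The matrices name cellranger 8.0.1, per the file headers, whereas Cell Ranger 4, Seurat 4.3.0 and build mm10 stand in the submitters' processing notes, and this was not resolved. A further sample named in the labels was not analysed here. The members and lists were chosen with earlier results of these data known. From the counts, cells of at least 500 genes and at most 10% mitochondrial UMIs were gated by markers and summed per class and library. Sums were tested with edgeR 4.0.16 (R 4.3.3; quasi-likelihood, TMM factors, the filterByExpr filter), adjusting p-values over all genes by Benjamini-Hochberg at a threshold of 0.05, in classes of at least 20 cells in every library. Mural, suprabasal and osteoblast cells (at least 15) were added after cell numbers were seen, as alternatives added to the plan. SE is the log2 difference divided by the root of F; the fitted difference holds a small prior count and is no bound at 0 UMIs. All 9 members were named, the 5 partner or receptor genes of lowest p per comparison, and the 3 genes most like each member. Values of 1 partner gene are not reported here; it stays in the fits and the counts of partners. Doublets were kept: the automatic threshold of Scrublet (scanpy 1.11.5) marked 0 or 1 cells per library and had not worked, so leaving out the 60 to 160 highest scores was an alternative, beside DESeq2 1.42.0 and the others given below. Total depth was 19767873 to 35331450 UMIs per library; the test was tried on simulated counts with known changes. RefSeq windows came from the GRCm38.p6 table.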

Additional observations from a re-analysis of the deposited data

How the results depend on the processing

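The counts of members called were recomputed under each alternative, as was each member's log2 difference that had an unadjusted p under 0.05 as reported. Of the recomputed counts 243 moved by at most 1.5 times and 19 by more. Of the log2 differences 712 counted as unchanged, 46 lost the call, 21 gained it and 1 turned. Unchanged means the same direction and side of the threshold, or, in the meningeal subsets, the same direction and a move of under 1 SE. A further 6, in the meningeal subsets whose p-values are not used, moved by over 1 SE. Between genotypes over all cells, 1 member was called with DESeq2, and 0 to 1 with a library left out (main 0). In mesenchyme 1 was called without the filter, 1 with DESeq2 and 0 to 1 with a library left out (main 0). In mural cells 1 was called with at least 4 markers, 0 with thinned cells (Lama1 and Lama3 were then not tested), 0 with DESeq2 (no adjusted p for either) and 0 to 1 with a library left out (main 2). Basal against suprabasal epithelium gave 0 with at least 4 markers, 1 with DESeq2 and 0 to 4 with a library left out (main 3). The mural difference from mesenchyme gave 1 without the filter (main 0). The genotype difference of Lama1 in endothelium minus mesenchyme, which rests on 0 UMIs in control 2 and mutant 1 and was not called, turned to -2.57 without mutant 2 and ranged up to 8.31; the cause was not tested. Chain shares were within 1 SD in 383 recomputations, and with at least 4 markers Lamb2 in mesenchyme moved to 18.2% and Lama4 in osteoblasts to 88.7%. Detection moved in all 16, as depth sets it.

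The replicate numbers are only shared labels: the correlation of same-numbered libraries ran from -0.192 to 0.108. With the replicate block 1 member was called in mesenchyme, Lama1 at -1.48 (adjusted p = 0.00108), and Lamc1 passed in mural cells at -1.35 (0.0496). With crossed numbers, tried after seeing the data in chondrocytes, where the correlation was lowest, 0 genes were called, as without a block. The small mural and glial sums, down to 0 UMIs of a gene in a library, limit what could be detected there.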
